A study of Homo sapiens with 32 samples.

Results

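The transcripts described here are the 119 genes whose level was lower with SM08502 than with vehicle in every one of 4 endometrial cancer cell lines, out of 35238 genes measured by bulk RNA sequencing. They were chosen by measured values: a mean level over all 32 libraries of at least 1 on the log2(CPM + 1) scale, where CPM is reads per 1000000 counted, a difference between group means (SM08502 minus vehicle) below -0.2 in each line, and a mean of the 4 differences of -0.8 or lower. The level alone was met by 14409 genes, 123 genes met the whole rule, and 4 of these (GPD1L, HYAL3, VPS36 and LRP5) were set aside. Ishikawa cells are labelled CTNNB1-wildtype, and Ishikawa-S33Y, an Ishikawa derivative, SNGM and HEC265 are labelled CTNNB1-mutated. Each line was treated for 24 h with vehicle (0.1% DMSO), paclitaxel, SM08502 or both drugs, with 2 libraries a group. The doses were 11 nM paclitaxel and 80 nM SM08502 in Ishikawa, 5.6 and 149 nM in HEC265, 11.7 and 350.7 nM in SNGM, and 6 and 85 nM in Ishikawa-S33Y, so doses differ wherever lines are set side by side. Whether Ishikawa-S33Y is 1 clone is not given in the sources used here.

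SM08502 inhibits the CDC-like kinases (CLK). These nuclear kinases phosphorylate SR proteins, which bind exons and recruit the spliceosome, and splicing in turn affects how much mature transcript a gene yields. Paclitaxel, a taxane, locks microtubules in their assembled form and arrests cells in mitosis. It is a standard drug for endometrial cancer, and the design asks what SM08502 does to transcripts alone and on top of paclitaxel. Beta-catenin, the product of CTNNB1, carries the canonical Wnt signal to the TCF and LEF factors in the nucleus.

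Of the libraries, 30 held 13.03 to 34.13 M reads (M, 1000000). Replicate 2 of the combination held 2.99 M reads in Ishikawa-S33Y and 1.61 M in SNGM. Leaving both out moved the mean difference between combination and paclitaxel of 22 members by over 0.1. Such differences, where they are printed, are given with and without them. So are the members called for that comparison in SNGM, in Ishikawa-S33Y, in the mean and between Ishikawa-S33Y and Ishikawa. Other counts that use these libraries are given with them only. The 2 Ishikawa libraries on paclitaxel also stood apart from each other, with ribosomal protein genes taking 3.78% and 6.19% of their reads. The 2 Ishikawa libraries with SM08502, which took part in the choice of members, split the same way (4.45% and 6.58%), and their deviations correlated with those on paclitaxel at a Pearson r of 0.85 over 8488 genes. Summed epithelial and endometrial carcinoma markers lay between 949 and 3806 CPM in every library, while SOX17 was near 0 in SNGM and EMX2 under 1 CPM in the mean of SNGM and of HEC265. Summed leukocyte markers stayed at or under 5.76 CPM and endothelial markers at or under 11.1 CPM. Summed fibroblast and stroma markers spanned 3.93 to 1165 CPM, driven by COL1A1, which is itself one of the 119 genes. The labels say that cells were plated in duplicate and no more, so p-values measure the spread between these samples, which may be technical.

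The promoters of 6 of the genes that carry the results below are shown first, to set the start sites of members that fell together side by side. MYH9, NUP210, ITGB5 and ATP2B4 are among the members with the largest falls, FGFR3 had the largest difference between Ishikawa and its derivative among members with a promoter in the table, and TUBB3 had the highest combination minus SM08502 difference of the members. Each line is the 150 bases before the RefSeq start site (GRCh38.p14), 5′ to 3′ on the gene's strand. Capitals mark matches, on either strand, to the GC box (GGGCGG), ETS core (CCGGAAG) or AP-1 (TGANTCA) letters.
MYH9: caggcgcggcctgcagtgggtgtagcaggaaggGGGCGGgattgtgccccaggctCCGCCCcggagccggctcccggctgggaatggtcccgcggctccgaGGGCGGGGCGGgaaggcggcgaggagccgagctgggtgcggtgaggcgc
NUP210: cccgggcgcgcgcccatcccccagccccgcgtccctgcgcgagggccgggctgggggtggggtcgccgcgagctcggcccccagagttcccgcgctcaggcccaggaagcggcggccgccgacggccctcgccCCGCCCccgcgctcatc
ITGB5: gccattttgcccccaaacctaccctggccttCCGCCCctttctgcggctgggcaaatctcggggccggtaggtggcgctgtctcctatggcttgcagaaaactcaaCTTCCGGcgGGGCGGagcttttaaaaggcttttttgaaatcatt
ATP2B4: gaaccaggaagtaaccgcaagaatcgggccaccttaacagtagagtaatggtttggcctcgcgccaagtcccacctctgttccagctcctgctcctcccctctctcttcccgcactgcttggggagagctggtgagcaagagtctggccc
FGFR3: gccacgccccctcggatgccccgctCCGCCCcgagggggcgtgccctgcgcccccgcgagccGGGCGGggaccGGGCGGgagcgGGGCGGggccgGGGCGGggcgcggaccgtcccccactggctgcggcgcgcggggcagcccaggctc
TUBB3: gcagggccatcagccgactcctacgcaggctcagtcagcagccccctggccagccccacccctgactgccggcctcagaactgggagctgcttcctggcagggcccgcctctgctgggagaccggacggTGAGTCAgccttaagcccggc
The windows are MYH9 chr22:36387968-36388117 (minus strand), NUP210 chr3:13420323-13420472 (minus strand), ITGB5 chr3:124901419-124901568 (minus strand), ATP2B4 chr1:203626682-203626831 (plus strand), FGFR3 chr4:1793143-1793292 (plus strand) and TUBB3 chr16:89921775-89921924 (plus strand). They lie just upstream of exon 1 of each gene. The sequences differ from one another: MYH9 and FGFR3 hold several GC boxes, NUP210 holds a single one beside its start, and ATP2B4 holds none of the motifs searched.

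By choice of the rule every member was lower with SM08502 than with vehicle, so these differences are a description. The members' median difference was -0.83 in SNGM, -1.05 in HEC265, -0.92 in Ishikawa and -1.12 in Ishikawa-S33Y, on the log2(CPM + 1) scale. Averaged over the lines the members spanned -1.80 to -0.80. Just inside the threshold of -0.8 were OGFOD3, BTC, PHC1 and FGFBP1, between -0.8052 and -0.8030, and just outside it were CIRBP, OSBPL2, SLC9A7 and KIF4A, between -0.7996 and -0.7953. The threshold therefore cuts through a continuous range. RBM3, a cold-inducible RNA-binding protein, is a member, and the related CIRBP is not, though it misses by under 0.001. A further 33 genes reached the mean and the level but were not below -0.2 in some line. The mirror rule for raised genes was met by 103 genes. In bulk RNA, fewer cells with a transcript and less of it per cell cannot be told apart, and CPM gives a share of the library's reads, not molecules per cell.

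The combination and paclitaxel libraries took no part in the differences that chose the members, although the level filter used all 32 libraries. Between them the same genes were lower again when SM08502 was added to paclitaxel. Averaged over the 4 lines, all 119 members were called lower with the combination than with paclitaxel (limma, Benjamini-Hochberg adjusted p under 0.05), against 19.1% of the 17011 genes tested, and no member was called higher. The median member stood at -0.99 and the members spanned -1.81 to -0.70, beside a median of 0.03 over all tested genes. The mean difference was -0.8 or lower for 105 members, against 1.52% of all genes tested. All but HIST1H3J, a histone H3 gene at 0.04 in SNGM (-0.64 there without the shallow library), were below 0 in each of the 4 lines, so 118 members were, against 13.9% of all genes.

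**Figure D1:**
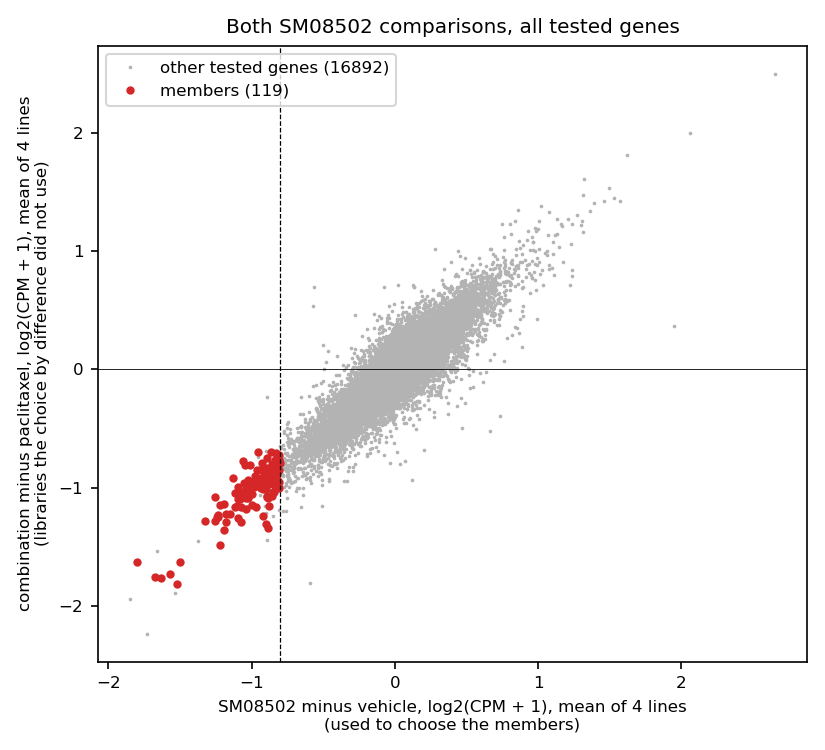
Each point is a tested gene. The x axis is SM08502 minus vehicle and the y axis combination minus paclitaxel, both in log2(CPM + 1) averaged over the 4 lines. Grey points are the other tested genes and red points the 119 members. The dashed line is the threshold of -0.8 used for the choice, and the members lie between -1.81 and -0.70 on the y axis.

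By line the falls had different sizes. The median member kept 56.0% of its paclitaxel CPM when SM08502 was added in SNGM, 46.0% in HEC265, 54.6% in Ishikawa and 38.8% in Ishikawa-S33Y. The median log2 differences were -0.81, -1.02, -0.79 and -1.27 in the same order. Members called lower numbered 83 in SNGM (background 6.6% of genes tested), 101 in HEC265 (6.53%), 89 in Ishikawa (6.14%) and 110 in Ishikawa-S33Y (17.4%). The call was made in all 4 lines for 53 members, against 0.705% of genes tested, in 3 lines for 41 (2.05%) and in 2 lines for 23 (5.38%). COL1A1 and TMEM14C were called in 1 line each (16.9%), and every member was called in at least 1. Ishikawa-S33Y gave the largest fall for 66 members and HEC265 for 30, while SNGM gave the smallest for 52 and Ishikawa for 44.

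In values of single libraries, both combination libraries lay below both paclitaxel libraries for 112 members in SNGM (background 18.9%), 117 in HEC265 (26.5%), 112 in Ishikawa (20.3%) and 119 in Ishikawa-S33Y (31.1%). This held in all 4 lines for 105 members, against 3.63% of genes. The exceptions in Ishikawa were AC007325.2, SMYD3, TMEM14C, GALNT6, MPC1, GLB1L2 and MAMDC2. The exceptions in HEC265 included IGFBP5. Counts by line rest on 2 libraries a group: with the spread taken from the 8 Ishikawa libraries alone no member was called in Ishikawa (88 at an unadjusted p under 0.05, limma, and 109 with all libraries, against 28.9% of genes), and with the 8 SNGM libraries alone 26 were called in SNGM. Without replicate 1 of paclitaxel in Ishikawa 50 members were called there, with a median of -0.56, without either combination replicate 53 and 54, and without replicate 2 of paclitaxel in SNGM 54 were called in SNGM. Without both shallow libraries 72 were called in SNGM, 109 in Ishikawa-S33Y and 119 in the mean over lines. Shares of all genes called under these settings are not given here, so the counts show only how far calls moved. Leaving out 1 library moved the value in a single line by over 1.5 times for 60 members in Ishikawa, 36 in SNGM, 4 in HEC265 and 3 in Ishikawa-S33Y, and the mean over lines for none. The difference between Ishikawa-S33Y and Ishikawa, given further below, moved by over 1.5 times for 83 members.

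**Figure D2:**
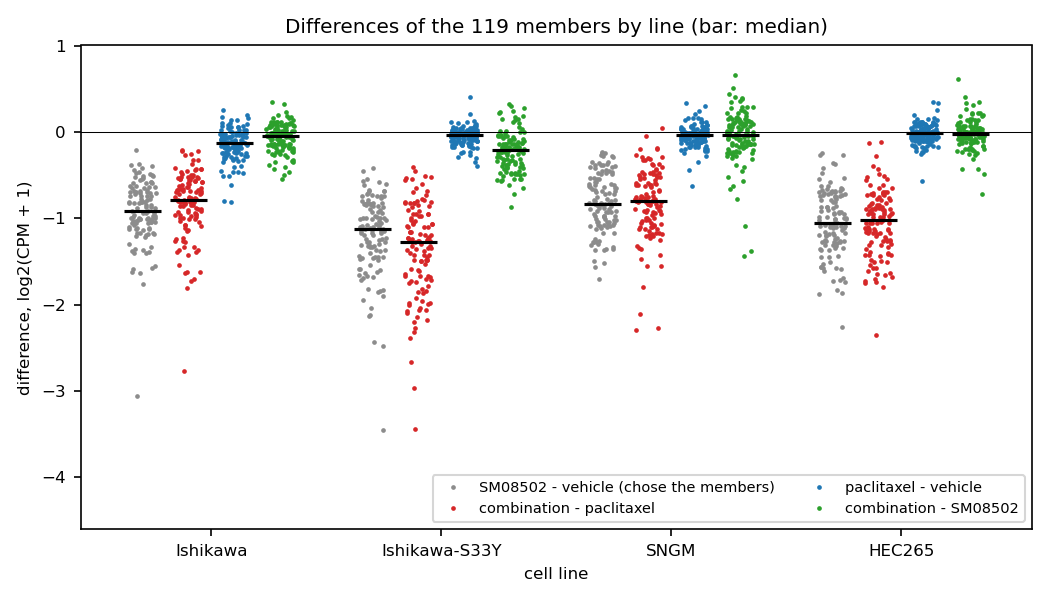
The y axis is the difference in log2(CPM + 1) for each of the 119 members, by cell line on the x axis and by comparison in colour, and black bars are medians. Combination minus paclitaxel (red) has medians of -0.79, -1.27, -0.81 and -1.02 from left to right, while the medians of paclitaxel minus vehicle (blue) are -0.13, -0.04, -0.04 and -0.01 and those of combination minus SM08502 (green) -0.05, -0.21, -0.04 and -0.03.

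Genes of the extracellular matrix, cell adhesion and the cytoskeleton form a group of 28 members, sorted by hand from what their products do after the members were known. Their median for combination minus paclitaxel was -1.0. All 28 were called lower in the mean, as were all 119 members, against 19.1% of genes tested. Of the 28, 10 were called in all 4 lines, against 44.5% of all members and 0.705% of genes tested. MYH9, the heavy chain of non-muscle myosin IIA, stood on paclitaxel at 322 and 498 CPM in SNGM, 853 and 969 in HEC265, 535 and 116 in Ishikawa and 736 and 773 in Ishikawa-S33Y. With the combination it stood at 206 and 145 CPM in SNGM, 397 and 358 in HEC265, 73.8 and 67.6 in Ishikawa and 92.6 and 99.3 in Ishikawa-S33Y. No groups overlap, but the paclitaxel replicates of Ishikawa differ several-fold. The mean difference of MYH9 was -1.81 (SE 0.22, adjusted p = 1.09e-06, limma). By line it was -1.21 in SNGM, -1.27 in HEC265, -1.80 in Ishikawa and -2.96 in Ishikawa-S33Y, with an adjusted p of 0.0625 in SNGM (limma). The Ishikawa value of MYH9 was -0.71 without replicate 1 of paclitaxel and -2.90 without replicate 2, and the SNGM value was -0.96 without the shallow library.

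ITGB5, the beta-5 chain of an integrin that binds vitronectin, stood on paclitaxel at 55.7 and 53.4 CPM in SNGM, 238 and 231 in HEC265, 28.0 and 17.8 in Ishikawa and 54.3 and 53.3 in Ishikawa-S33Y. With the combination ITGB5 stood at 17.3 and 13.1 CPM in SNGM, 92.6 and 74.3 in HEC265, 7.63 and 8.51 in Ishikawa and 11.7 and 7.69 in Ishikawa-S33Y. Each combination library was below each paclitaxel library of its line. The mean difference of ITGB5 was -1.76 (SE 0.09, adjusted p = 2.01e-11, limma), and it was -1.79 in SNGM, -1.49 in HEC265, -1.37 in Ishikawa and -2.39 in Ishikawa-S33Y. Without both shallow libraries the ITGB5 difference was -1.60 in SNGM, -2.11 in Ishikawa-S33Y and -1.64 in the mean. CELSR1, a cadherin of planar cell polarity, stood on paclitaxel at 117 and 139 CPM in SNGM, 137 and 134 in HEC265, 108 and 44.7 in Ishikawa and 195 and 206 in Ishikawa-S33Y. With the combination CELSR1 stood at 51.4 and 35.5 CPM in SNGM, 40.3 and 40.0 in HEC265, 28.5 and 25.8 in Ishikawa and 45.0 and 34.8 in Ishikawa-S33Y. Here too the groups did not overlap in any line. The mean difference of CELSR1 was -1.73 (SE 0.13, adjusted p = 1.55e-09, limma), and -1.62 without both shallow libraries.

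SULF2, an extracellular enzyme that removes sulfate from heparan sulfate, differed by -1.36 (SE 0.16), and HSPG2, the heparan sulfate proteoglycan perlecan, by -1.04 (SE 0.18). The other matrix genes included the collagens COL12A1 at -1.04, COL18A1 at -1.0 and COL1A1 at -0.85 (-0.73 without both shallow libraries), and TNC, the glycoprotein tenascin C, at -1.09. COL1A1 on paclitaxel ranged widely between lines, from 1.76 and 2.08 CPM in SNGM to 189 and 64.8 in Ishikawa, 1050.0 and 1099.9 in Ishikawa-S33Y and 4.85 and 5.63 in HEC265. The shallow SNGM combination library held 0 reads of COL1A1. TLN2, a talin that links integrins to actin, differed by -1.34, and by -1.11 without both shallow libraries, where its SNGM value rests on 2 reads in the shallow library. The smallest mean differences among all members were those of MAMDC2 (-0.70, SE 0.11, and -0.86 without both shallow libraries) and of NPTN (-0.71, SE 0.05), an adhesion protein of the immunoglobulin family, both of this group, together with GLB1L2 (-0.70) and RCOR3 (-0.72, and -0.61 without both shallow libraries). Members of this group that act on actin or microtubules included TAGLN (-0.94, and -0.82 without both shallow libraries), TBCD (-1.04), a tubulin cofactor, and AGBL5 (-1.06), a tubulin deglutamylase.

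**Figure D3:**
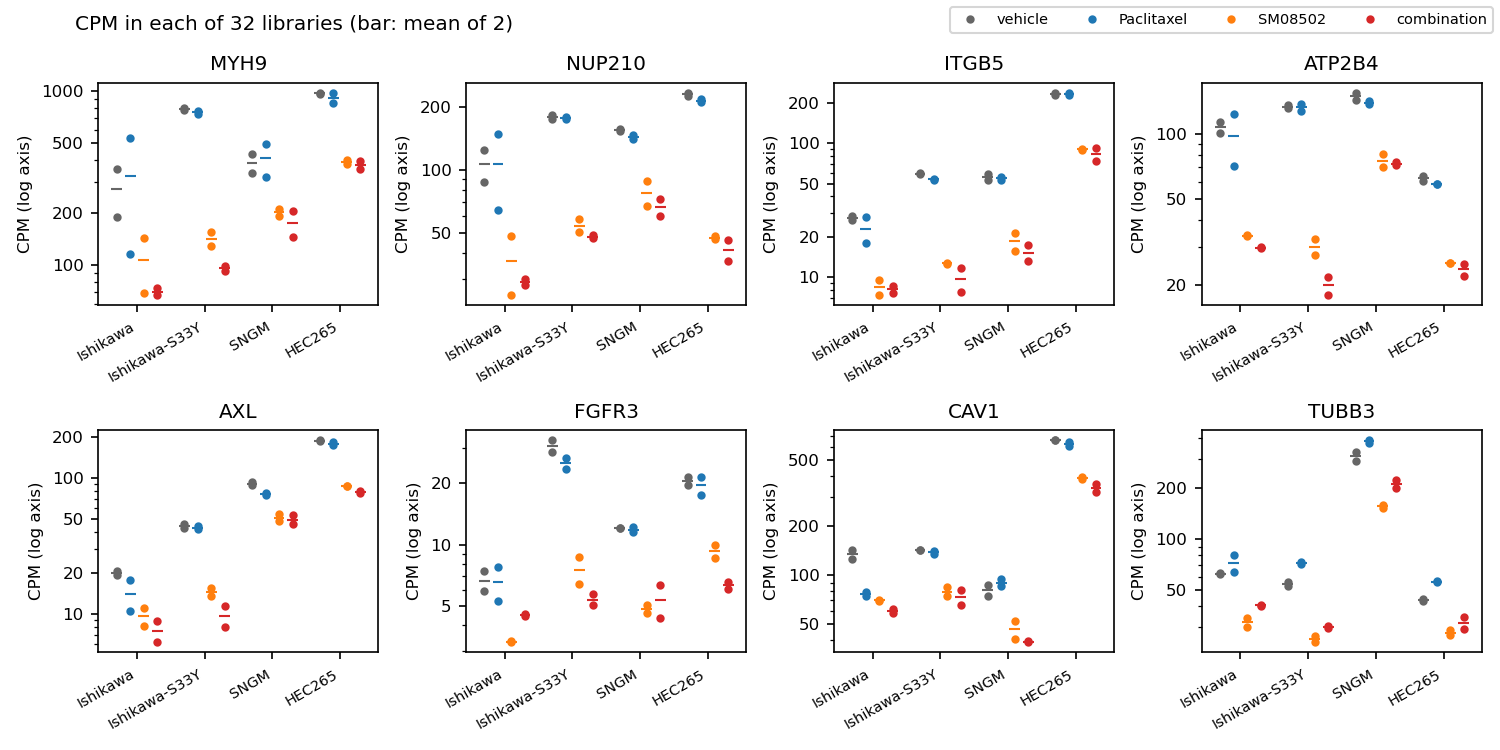
CPM on a log axis for 8 members in all 32 libraries, by cell line on the x axis. Each point is 1 library, each short bar the mean of 2, and colours are the 4 treatments. In each panel the libraries with SM08502, alone or combined, lie below those of the same line without it, apart from MYH9 and AXL in Ishikawa, where 1 paclitaxel library lies among those with SM08502.

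Receptors, ligands, transporters and signalling proteins were the largest group sorted by hand, with 29 members and a median of -1.0. Of the 29, 15 were called in all 4 lines, against 44.5% of all members and 0.705% of genes tested. ATP2B4, a plasma membrane pump that exports calcium, stood on paclitaxel at 141 and 137 CPM in SNGM, 58.8 and 58.7 in HEC265, 124 and 70.9 in Ishikawa and 128 and 136 in Ishikawa-S33Y. With the combination ATP2B4 stood at 73.6 and 71.6 CPM in SNGM, 25.1 and 22.2 in HEC265, 29.9 and 29.7 in Ishikawa and 21.9 and 18.1 in Ishikawa-S33Y. No groups overlap, and the lowest combination values are those of Ishikawa-S33Y. The mean difference of ATP2B4 was -1.62 (SE 0.08, adjusted p = 7.62e-12, limma).

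FGFR3 and AXL are receptor tyrosine kinases, for fibroblast growth factors and for GAS6. FGFR3 stood on paclitaxel at 12.1 and 11.5 CPM in SNGM, 21.5 and 17.6 in HEC265, 7.79 and 5.30 in Ishikawa and 23.7 and 26.7 in Ishikawa-S33Y. With the combination FGFR3 stood at 6.31 and 4.36 CPM in SNGM, 6.55 and 6.02 in HEC265, 4.46 and 4.55 in Ishikawa and 5.70 and 5.01 in Ishikawa-S33Y. The Ishikawa levels were low on either treatment and the change there was the smallest. The mean difference of FGFR3 was -1.25 (SE 0.09, adjusted p = 8.29e-10, limma). AXL stood on paclitaxel at 74.4 and 77.4 CPM in SNGM, 174 and 183 in HEC265, 17.7 and 10.5 in Ishikawa and 41.8 and 44.2 in Ishikawa-S33Y and with the combination at 45.5 and 52.9 CPM in SNGM, 80.0 and 77.3 in HEC265, 6.17 and 8.81 in Ishikawa and 11.4 and 8.02 in Ishikawa-S33Y. Its groups did not overlap in any line, and its mean difference was -1.16 (SE 0.09, adjusted p = 4.00e-09, limma). GABRP, the pi subunit of the GABA-A receptor, differed by -1.49 (SE 0.19), and by -1.23 without both shallow libraries, since the shallow SNGM library held 2 of its reads. Among ligands, betacellulin (BTC), which activates EGFR, differed by -1.0 (-0.96 without both shallow libraries, of which the SNGM one held 0 of its reads), and FGFBP1, which carries fibroblast growth factors, by -0.79. PSEN2 (-1.22, and -0.99 without both shallow libraries) and NCSTN (-0.89) encode subunits of gamma-secretase, the protease that cleaves Notch receptors. F3, tissue factor, differed by -1.17, and TSC2, which restrains mTOR signalling, by -0.92. LRRK1, a protein kinase, was at -1.0.

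Mitochondrial proteins made up 15 members, with a median of -0.99. Of the 15, 7 were called in all 4 lines, against 44.5% of all members and 0.705% of genes tested. UQCRC2, a core subunit of respiratory complex III, differed by -0.81 in SNGM, -1.42 in HEC265, -0.72 in Ishikawa and -1.98 in Ishikawa-S33Y. Its SNGM value was -1.10 without the shallow library and -0.52 with that library as the lone combination replicate. ATAD3A, an ATPase of the mitochondrial membrane that has near-identical neighbouring copies, was at -1.28, a value that counting could split between the copies. PITRM1, which degrades presequences, was at -1.24. IDH2 and SUCLG2 are enzymes of, or linked to, the citric acid cycle, at -1.05 and -1.09, MPC1 (-0.75) is part of the pyruvate carrier, and PDK1 (-0.84) inhibits pyruvate dehydrogenase. SLC25A10, the dicarboxylate carrier, differed by -1.31 (SE 0.26), but had no read in the shallow SNGM combination library, and its difference without both shallow libraries was -0.82 (adjusted p = 5.44e-08, limma).

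The secretory pathway, lysosome, glycans and lipids gave 21 members with a median of -0.89. Of the 21, 10 were called in all 4 lines, against 44.5% of all members and 0.705% of genes tested. LPCAT1 (-1.28, and -1.42 without both shallow libraries) and LPCAT3 (-0.82) both re-acylate lysophospholipids, and SCD (-0.91) desaturates fatty acids. B4GALNT3 (-1.29, and -1.16 without them), GALNT6 (-0.77) and GLCE (-1.08) modify glycans. GLB1, lysosomal beta-galactosidase, was at -0.96, and CLN6, an endoplasmic reticulum protein needed for lysosome function, at -1.0. The falls of B4GALNT3 and LPCAT1 were largest in Ishikawa-S33Y, at -2.20 and -2.10 (-2.16 and -2.44 without the shallow library).

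RNA processing and nuclear proteins gave 17 members with a median of -0.96. Of the 17, 7 were called in all 4 lines, against 44.5% of all members and 0.705% of genes tested. NUP210, a membrane protein of the nuclear pore, stood on vehicle at 154 and 158 CPM in SNGM, 234 and 227 in HEC265, 87.2 and 125 in Ishikawa and 182 and 175 in Ishikawa-S33Y. With SM08502 NUP210 stood at 67.3 and 88.5 CPM in SNGM, 48.1 and 46.6 in HEC265, 48.0 and 25.2 in Ishikawa and 58.0 and 50.1 in Ishikawa-S33Y. On paclitaxel NUP210 stood at 139.7 and 147 CPM in SNGM, 218 and 210.4 in HEC265, 149 and 64.5 in Ishikawa and 176 and 178 in Ishikawa-S33Y. In each line the vehicle and paclitaxel libraries lay above both SM08502 libraries. With the combination NUP210 stood at 72.2 and 60.4 CPM in SNGM, 46.3 and 36.7 in HEC265, 28.0 and 29.9 in Ishikawa and 47.0 and 48.5 in Ishikawa-S33Y. The mean difference between the combination and paclitaxel was -1.76 (SE 0.14, adjusted p = 2.76e-09, limma), and HEC265 had the largest at -2.35. PRPF8, the core protein of the U5 spliceosomal particle, was at -0.60 in SNGM, -0.95 in HEC265, -1.03 in Ishikawa and -2.07 in Ishikawa-S33Y, and without replicate 1 of paclitaxel its Ishikawa value was -0.49. Other members of RNA processing were DDX46 (-1.14), a helicase of the spliceosome, THRAP3 (-1.10), RBM3 (-0.92) and RRP12 (-0.89), which acts in ribosome assembly. ERCC2, a helicase of the repair and transcription factor TFIIH, was at -1.13. PHC1, of Polycomb repressive complex 1, was at -0.95, and RCOR3, a corepressor, at -0.72. HIST1H3J is 1 of many near-identical histone genes, so its counts are uncertain. The remaining 9 members, among them LAP3 (-1.29), an aminopeptidase, UROS (-1.22), of heme synthesis, OGFOD3 (-0.85, and -0.75 without both shallow libraries) and AC007325.2 (-0.95), which had no RefSeq match, had a median of -1.02.

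Ishikawa and Ishikawa-S33Y share an origin and differ in CTNNB1, in paclitaxel dose (11 and 6 nM), in SM08502 dose (80 and 85 nM) and in RNA input (350 ng and 500 ng), which cannot be told apart here. The effect of adding SM08502 to paclitaxel differed between them for 31 members by the test of the difference itself (limma, adjusted p under 0.05), against 9.31% of all genes tested. In all 31 the fall was larger in Ishikawa-S33Y, against 4.83% of genes called in that direction. PDK1 fell from 59.1 and 59.8 to 17.5 and 17.7 CPM in Ishikawa-S33Y, and in Ishikawa it stood at 29.5 and 36.5 on paclitaxel and 27.0 and 27.8 in the combination. Its effect differed by -1.45 (SE 0.19, adjusted p = 0.000154, limma), a value chosen after it was seen. ATP5G1, a subunit of ATP synthase, was at -1.56, and AC007325.2, FGFR3 and AXL were at -1.85, -1.61 and -1.25. In Ishikawa-S33Y itself ATP5G1 fell by -2.06 with and -1.77 without the shallow library, and AXL by -2.06 and -1.83. Among the 31 were ATP5G1, PDK1, HIBADH, UQCRC2, IDH2 and SUCLG2, from the mitochondrial group sorted by hand. They are examples: counts by group are not given, and a difference between groups was not tested. Both Ishikawa paclitaxel libraries and the shallow Ishikawa-S33Y combination library enter this comparison. The count was 40 without both shallow libraries, 62 without replicate 1 of paclitaxel in Ishikawa, 18 without replicate 2 of the combination there, 20 without replicate 2 of paclitaxel in Ishikawa-S33Y, and 19 when the spread came from the samples of those lines only. The 9.31% belongs to the fit of all libraries. Leaving out 1 library moved the difference between the 2 lines by over 1.5 times for 83 of the 119 members. Shares of all genes for the other counts of calls are not given, so those counts alone cannot tell a shift over all genes from one of members. In the fit of all libraries the median of Ishikawa-S33Y minus Ishikawa was -0.51 for members and 0.04 over all genes tested. With limma voom these medians were -0.53 and 0.096, and after quantile normalization -0.59 and 0.02.

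**Figure D4:**
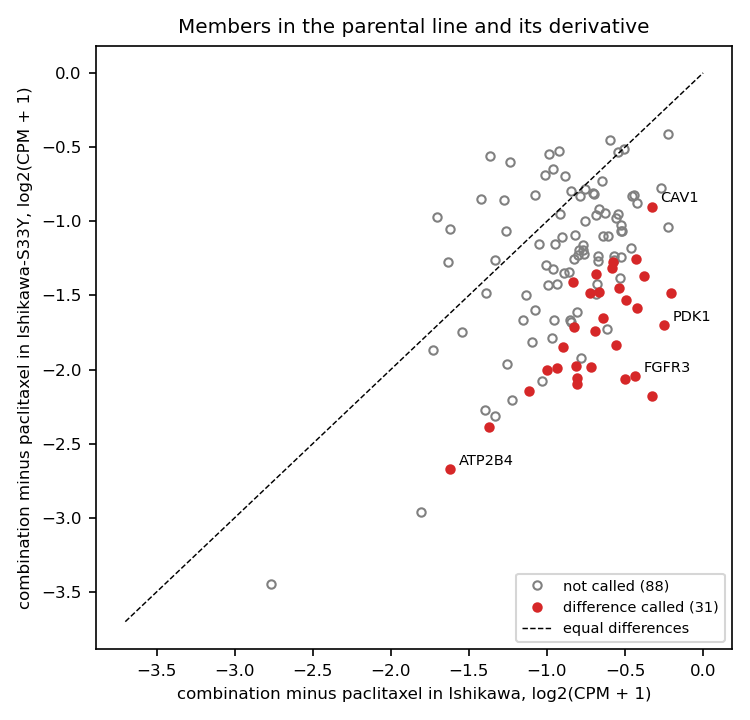
Each point is 1 of the 119 members, with combination minus paclitaxel in Ishikawa on the x axis and in Ishikawa-S33Y on the y axis, in log2(CPM + 1). Red points are the 31 members whose effects differed by the test, all below the dashed line of equal differences.

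With paclitaxel alone, 109 of the 119 members were within 0.2 of vehicle in the mean over lines, against 97% of all genes tested. That comparison shares its vehicle libraries with the rule, and choosing genes with high vehicle values favours differences below 0, so the values are a description. Averaged over the lines the members had a median of -0.05 for paclitaxel minus vehicle, with a range of -0.37 to 0.31, beside a median of 0.01 over all genes. Of the 119, 100 were below 0, against 43.8% of all genes. By line the median was -0.13 in Ishikawa, where 82 members were within 0.2 (68.9% of all genes) and 97 below 0 (51.5%), with the lowest at -0.81. It was -0.04 in SNGM, -0.01 in HEC265 and -0.04 in Ishikawa-S33Y. No member was called (limma; background 0%), and 8 passed an unadjusted p under 0.05, against 2.82% of genes. In Ishikawa alone CAV1, the coat protein of caveolae, was called lower, against 0.00588% of genes, which is CAV1 alone. On vehicle CAV1 stood at 143 and 124 CPM in Ishikawa and on paclitaxel at 74.1 and 78.3, with no overlap. Its difference was -0.80 there, in the direction that the choice of members favours, 0.15 in SNGM, -0.08 in HEC265 and -0.04 in Ishikawa-S33Y. With the combination CAV1 stood at 38.9 and 39.8 CPM in SNGM, 356 and 321 in HEC265, 62.2 and 59.0 in Ishikawa and 65.6 and 81.6 in Ishikawa-S33Y, and combination minus paclitaxel was -1.17 in SNGM, -0.89 in HEC265, -0.33 in Ishikawa and -0.90 in Ishikawa-S33Y. Without both shallow libraries that difference of CAV1 was -1.18 in SNGM and -1.06 in Ishikawa-S33Y.

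When paclitaxel was added to SM08502, 92 members were within 0.2 of SM08502 alone in the mean over lines, against 87.4% of all genes tested. That comparison shares its SM08502 libraries with the rule, and choosing genes with low SM08502 values favours differences above 0. The members had a median of -0.08 for combination minus SM08502, with a range of -0.62 to 0.29, beside a median of 0.003 over all genes. Of the 119, 90 were below 0, against 49.2% of all genes. TUBB3 was the single member called in the mean over lines (limma; background 0.047%), 21 members passed an unadjusted p under 0.05 against 11.5% of genes, and none was called within a single line. In Ishikawa-S33Y the members' median was -0.21, beside -0.04 over all genes tested, and it was -0.04, -0.03 and -0.05 in SNGM, HEC265 and Ishikawa. Members within 0.2 numbered 51 in Ishikawa-S33Y (60.9% of all genes), where 102 were below 0 (56.4%), 75 in SNGM (56.1%), 96 in HEC265 (86.8%) and 93 in Ishikawa (83.1%). The combination groups of Ishikawa-S33Y and SNGM each hold a shallow library, and these medians and counts are given with it only.

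TUBB3 encodes a beta-tubulin isotype, a building block of the microtubules that paclitaxel binds, and reads of near-identical tubulin genes could be shared with it. On vehicle TUBB3 stood at 328 and 290.1 CPM in SNGM, 44.3 and 43.0 in HEC265, 62.8 and 62.0 in Ishikawa and 55.5 and 52.4 in Ishikawa-S33Y. On paclitaxel TUBB3 stood at 386 and 372 CPM in SNGM, 55.6 and 56.2 in HEC265, 80.2 and 63.5 in Ishikawa and 72.8 and 70.8 in Ishikawa-S33Y. It was higher on paclitaxel in the mean of each line, and the replicates overlapped with vehicle in no line. With SM08502 TUBB3 stood at 153 and 160.1 CPM in SNGM, 27.0 and 28.8 in HEC265, 34.3 and 30.2 in Ishikawa and 26.7 and 24.4 in Ishikawa-S33Y. With the combination TUBB3 stood at 225 and 200.4 CPM in SNGM, 34.5 and 29.5 in HEC265, 40.1 and 40.9 in Ishikawa and 29.6 and 30.4 in Ishikawa-S33Y. The combination therefore lay between SM08502 and vehicle in each line. Combination minus SM08502 was 0.29, in the direction that the choice of members favours, and 0.27 to 0.32 over 42 alternatives, of which 16 called it and the replicate block did not. Paclitaxel minus vehicle was 0.31, against the direction that the choice favours, and was not called, while 7 of the 42 alternatives called it. Combination minus paclitaxel was -0.91 (SE 0.05, adjusted p = 4.77e-11, limma).

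**Figure D5:**
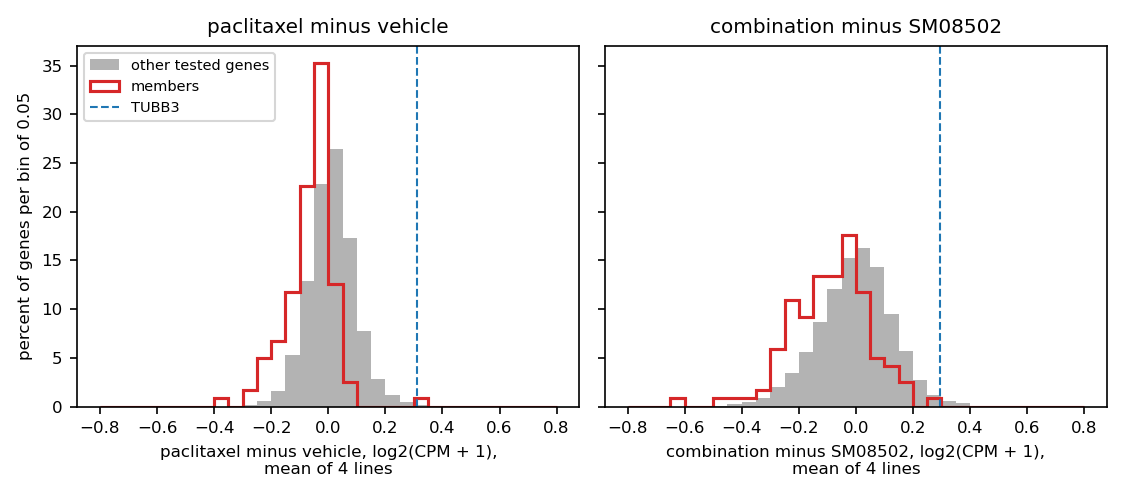
The y axis is the percent of genes per bin of 0.05 and the x axis the difference in log2(CPM + 1), averaged over the 4 lines, for paclitaxel minus vehicle on the left and combination minus SM08502 on the right. Grey bars are the other tested genes, red outlines the members and dashed lines TUBB3, at 0.31 and 0.29. The members' medians are -0.05 and -0.08, and values beyond 0.8 either way are drawn in the end bins.

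Members and all tested genes differed somewhat in the distribution of length, position and promoter composition, which the rule did not use. RefSeq matched 118 of them, of which 117 (99.2%) are protein coding, against 94.3% of the tested genes matched. The median genomic length was 44.3 kb, against 30.9 kb over all tested coding genes and 32.4 kb over those with a level of at least 1. Genes over 100 kb made up 39 of 117 (33.3%), against 19.6% of all, and genes under 10 kb 11.1% against 20.7%. The median mean level was 5.31 on the log2(CPM + 1) scale, against 4.35, a quantity the rule used through its level filter, and 4.71 over genes that pass it. RefSeq lists a median of 6 transcripts for a member and 5 for all. By place, 21 members (17.9%) lie on chromosome 1, against 10.1% of tested coding genes, and 1.71% on chromosome 19, against 7.43%. These are descriptions without a test. Of the 118 loci 77 overlap another RefSeq gene, 26 a protein-coding one, and the strand used in counting is not given, so reads of overlapping genes cannot be told apart.

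RefSeq promoters were in the table for 92 members and for 12376 tested coding genes. Over 300 bases from 250 before to 50 after the start, the median GC content was 69.0% for members, 64.7% for all and 65.3% for genes with a level of at least 1, and CpG dinucleotides numbered 29.5 and 25 at the median for members and all. In the 250 bases before the start, searched on both strands, the GC box GGGCGG was in 76.1% of member promoters and 64.1% of all. CCAAT was in 34.8% and 34.6%, TATAAA in 6.52% and 6.46%, the E-box CACGTG in 9.78% and 8.40%, and the ETS core CCGGAAG in 12.0% and 14.3%. The TCF/LEF letters CTTTGAT were in none of the 92 and in 1.37% of all, and the AP-1 letters TGANTCA, shown above for TUBB3, were in 2.17% and 4.23%. Letters in a window are not sites in use.

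For reference, 6 lists of related genes that are mostly not members were read in the same comparison, combination minus paclitaxel in the mean over lines, where 19.1% of genes were called lower and 25.7% higher. Of 20 receptor tyrosine kinases 11 were called lower, FGFR3, AXL and ERBB2 (-0.84) among them, 1 was called higher (DDR2, 0.43) and 8 were not called. Of 28 Wnt receptors and signal transducers, none of them a member, 7 were called lower, such as TCF7L1 (-0.45), and 3 higher, such as FBXW11 (0.21). LRP5, a Wnt receptor, and VPS36, of endosomal sorting, met the rule but were set aside at the start. Neither could therefore count as a member. Splicing kinases and SR proteins had 3 of 20 lower, such as SRSF2 (-0.29), and 10 higher. CLK1, a kinase that SM08502 inhibits, was higher by 1.45 (SE 0.07, limma). Homologous recombination and Fanconi genes had 2 of 22 lower and 7 higher (FANCI -0.49, FANCL 0.41), mitosis and spindle genes 3 of 20 lower and 5 higher (AURKA -0.30, MAD2L1 0.39), and endosomal sorting genes 3 of 20 lower and 11 higher (HGS -0.26, CHMP2B 0.42).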

How the data were processed

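RNA was sequenced from 4 cell lines under 4 treatments, 32 libraries in 16 groups of 2, assigned by the labels' titles. The authors deposited 1 table of log10(CPM + 1) values for 35238 genes. Per the submitters' processing notes, bcl2fastq, kallisto and STAR and the build GRCh38 were used. The counting program, annotation and strand are not given in the sources used here. Splicing tables were not analysed here. Per the labels, ribosomal RNA was depleted before library preparation.

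From these log10 values CPM and then log2(CPM + 1) were computed, with a pseudocount of 1, which understates the change of low genes. Every value (100%) was a whole number of reads within 0.01 read, which gave each depth. Genes with CPM above 1 in at least 2 libraries (17011) were fitted with limma 3.58.1 (R 4.3.3), 1 mean per group over all 32 libraries, with an intensity trend (residual degrees of freedom 16, prior 4.90). Adjusted p values are Benjamini-Hochberg over all 17011 genes, two-sided. All 119 members passed the filter, 112 had at least 1 read in every library, and 109 at least 3. The fit was tested on simulated data.

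The members, gene lists and tests were chosen with earlier results of these data known. Members were named by a rule: the 10 largest falls for combination minus paclitaxel negative in all 8 same-numbered pairs, the 4 smallest, those nearest the threshold, those called for paclitaxel or for combination minus SM08502, the 2 largest differences between Ishikawa-S33Y and Ishikawa, the 5 highest in CPM, those on the 6 lists, and the largest called rise and fall of each list. Other members, given as values by what they do, and PDK1 were picked with their values in view. Results for some members are not reported here. Alternatives were no filter, a mean log2 level of at least 2, a pseudocount of 0.1, median re-centring, quantile normalization, no trend, samples of the compared lines only, a replicate block, limma voom on recovered reads, leaving out both shallow libraries and leaving out each library. Leaving out all Ishikawa samples and a crossed block were added after seeing the data. Background percentages are shares of all tested genes called by the same rule.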

Additional observations from a re-analysis of the deposited data

Results flagged for a closer look

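Of the 27 members named by rule, 7 had an effect of adding SM08502 to paclitaxel that differed between Ishikawa-S33Y and Ishikawa in the test of the difference (limma, adjusted over 17011 genes), each with the larger fall in Ishikawa-S33Y, against 9.31% of all genes called in either direction. AC007325.2 and FGFR3 were named for having the 2 largest such differences among the members, so their calls describe that choice. The differences were -1.85 for AC007325.2 (adjusted p = 0.000232), -1.61 for FGFR3 (0.00051), -1.25 for AXL (0.00455) and -1.17 for PHC1 (0.0272), all limma. They were -1.05 for ATP2B4 (0.00573), -1.02 for ITGB5 (0.0212) and -0.58 for CAV1 (0.0315), again limma. The highest adjusted p over 42 alternatives was 0.0161 for AC007325.2 and 0.0121 for FGFR3, so both were called in each of them. AXL and ATP2B4 were not called in 1 alternative each, with the spread taken from the 2 lines alone (0.0625 and 0.0623, limma). CAV1, ITGB5 and PHC1 were each not called in 8 alternatives, with an adjusted p of up to 0.112, 0.110 and 0.112 (limma). The differences themselves ranged over the alternatives from -1.45 to -0.65 for ATP2B4, -1.60 to -0.74 for PHC1, -1.33 to -0.70 for ITGB5, -1.61 to -0.90 for AXL and -0.73 to -0.42 for CAV1. Those of ATP2B4 and PHC1 were smallest without replicate 2 of paclitaxel in Ishikawa. For CAV1 in Ishikawa the paclitaxel libraries, against which the combination is read, were already below vehicle, at 74.1 and 78.3 against 143 and 124 CPM. The doses and the RNA input also differ between the lines, and their part in these differences was not tested.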

How the results depend on the processing

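All 119 members kept their call for combination minus paclitaxel in the mean over lines when any 1 library was left out (119 to 119), and 117 to 119 were called under the other alternatives. For that comparison the 27 members named by rule kept direction and call in all 1132 alternative values, and leaving out 1 library moved the mean difference of none of the 119 by over 1.5 times. The difference between Ishikawa-S33Y and Ishikawa was less steady, moving by over 1.5 times for 83 of the 119 when 1 library was left out. Calls in other comparisons were lost more often, as given beside them. By line, the counts without 1 library were 50 to 103 in Ishikawa, 102 to 114 in Ishikawa-S33Y, 54 to 102 in SNGM and 79 to 110 in HEC265. The share of all genes called under each alternative is not given in this section, so its counts show only how far calls moved. With samples of the compared line only, 0 members were called in Ishikawa (88 at an unadjusted p under 0.05, limma) and 26 in SNGM. The test has fewer residual degrees of freedom there. That is so in HEC265 and Ishikawa-S33Y too, where at least 94 and 106 members were called with samples of the compared line only. Why the lines differ in this was not tested. For Ishikawa-S33Y minus Ishikawa, 47 were called after quantile normalization, 19 with the samples of the compared lines only, and 18 to 62 without 1 library. For combination minus SM08502, 0 were called without the intensity trend, with the replicate block and with limma voom (17 at an unadjusted p under 0.05), 2 (PADI3 and TUBB3) with Ishikawa left out, and 0 to 13 without 1 library, the 13 being without replicate 1 of the combination in SNGM, which leaves the shallow library alone. For paclitaxel minus vehicle, 1 member (TUBB3) was called without a filter, after re-centring, after quantile normalization and with Ishikawa left out, and 0 to 1 without 1 library. The cause was not tested. Replicate numbers were not shown to pair samples: deviations of same-numbered libraries correlated from -0.59 to 0.85. With the replicate block 88, 111, 84 and 101 members were called in Ishikawa, Ishikawa-S33Y, SNGM and HEC265, 119 in the mean, 33 for Ishikawa-S33Y minus Ishikawa and 0 for paclitaxel minus vehicle. With the numbers crossed in SNGM, 93 were called there. limma voom moved the median of all genes for SNGM by 0.11. The rule itself gave 181 members with a pseudocount of 0.1, 196 with a threshold of -0.7, 71 with -0.9, 131 after re-centring and 108 to 133 without 1 library.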
